A study of Drosophila melanogaster with 3 samples.

Results

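The 5 genes described here, Dref, Trf2, pzg, M1BP and row, encode Drosophila proteins that act at the promoters of broadly expressed ("housekeeping") genes. They were chosen by name, for the role of their products, out of 13945 protein-coding genes on the 6 main chromosome arms. The question was whether CG11504, the tagged protein of the study, was found on DNA at these 5 genes, where, and how alike in the replicates. Whole embryos (0 to 18 h of age, both sexes together) were sampled as 3 biological replicates from a transgenic line whose CG11504 carries GFP at its C-terminal end, and the tagged protein was pulled down with an antibody against GFP after sonication to fragments of 200 to 800 bp (ChIP-seq). All 3 replicates belong to this 1 group. Embryos of this age hold many cell types, no expression was measured, and what drives the transgene and whether the flies keep untagged CG11504 were not stated in the labels. No library of flies without the tag was analysed here, so peaks common to many GFP experiments are counted together with those of CG11504.

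Many fly promoters of broadly expressed genes lack a TATA box and carry other short sequences instead. One is the DNA replication-related element (DRE, TATCGATA), bound by DREF, the product of Dref. TRF2, a relative of the TATA-binding protein that does not bind the TATA box, was purified together with DREF, the zinc finger protein Pzg (also called Z4) and subunits of the NURF chromatin remodeller, and serves as an alternative core promoter factor. Motif 1 is the second such sequence, with the core GGTCACAC, and is bound by the zinc finger protein M1BP. ROW, the product of row, is a zinc finger protein named for its likeness to WOC, and both are found with the heterochromatin protein relative HP1c at active promoters.

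The sequences below are shown because they are the stretches of DNA in which the members' peaks lie or which separate the start sites that share a peak. They were read from the NCBI reference genome of the dm6 assembly and are written 5' to 3' on the strand of the named gene. Capitals mark matches, on either strand, to the words searched for, which were TATCGATA, its core CGATA, GGTCACAC, the TATA word TATAAA, the E-box word CAGCTG, the GAGA word GAGAG and the core promoter words GTATTT (named Ohler 6) and CATCNCTA with its variant form CAGCNCTA (named Ohler 7). The first sequence is the whole gap between the start sites of Dref and of the divergently transcribed ribosomal protein gene RpL13 (chr2L:9967230-9967312, reverse strand), and its capitals mark CGATA read on the other strand. The second is the gap between the starts of CG12974 and pzg (chr3L:21285963-21286098, forward strand), which holds none of the words. The third is 300 bases around the M1BP summit of the thresholded list (chr3R:8731729-8732028, reverse strand), in which the first block of capitals is Ohler 7 and the others are TATAAA or overlapping pairs of it. The fourth is 101 bases around the strongest summit inside Trf2 (chrX:8417076-8417176, forward strand), again with none of the words.
Dref to RpL13: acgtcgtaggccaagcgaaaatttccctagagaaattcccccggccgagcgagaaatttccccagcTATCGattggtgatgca
CG12974 to pzg: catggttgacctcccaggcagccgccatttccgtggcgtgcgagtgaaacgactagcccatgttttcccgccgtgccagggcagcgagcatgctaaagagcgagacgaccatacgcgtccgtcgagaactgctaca
M1BP summit: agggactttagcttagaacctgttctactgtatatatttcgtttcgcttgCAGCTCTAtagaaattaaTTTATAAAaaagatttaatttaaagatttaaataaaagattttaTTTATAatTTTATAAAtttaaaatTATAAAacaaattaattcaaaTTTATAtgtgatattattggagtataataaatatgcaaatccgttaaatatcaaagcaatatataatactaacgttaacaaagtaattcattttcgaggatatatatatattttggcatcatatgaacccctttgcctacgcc
Trf2 intron summit: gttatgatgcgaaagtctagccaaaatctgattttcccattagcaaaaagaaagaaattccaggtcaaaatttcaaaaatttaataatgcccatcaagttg

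The data are the authors' peak lists. Each replicate has 30000 peaks, as does the list called on the 3 replicates pooled, and a shorter list holds the 10650 peaks that the authors kept by their irreproducible discovery rate (the IDR list). Each peak carries a signal value from the authors' caller whose scale is not stated, so strength is read as the rank by signal within a list, where rank 1 is the strongest. The read depth is unknown, so values carry no counting interval. The IDR list was made from the replicate and pooled lists, and all were called against the same control, so recurrence of a peak across lists is not independent evidence for it. In what follows a promoter peak is a summit within 500 bp of an annotated start site of the gene.

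In the IDR list M1BP, pzg and row had a promoter peak, and Dref and Trf2 had none. That is 3 of 5 genes, where 22.9% of all protein-coding genes had one, and no test was made of so short a list. M1BP had the strongest of the 3 peaks (rank 766), pzg came next (rank 2739) and row last (rank 6063). Their median rank of 2739 compares with a median of 3409 for the 3196 protein-coding genes with a promoter peak. Among those genes 15.1% had a stronger promoter peak than M1BP, 42.7% a stronger one than pzg and 75.1% a stronger one than row. The −log10 q-value the authors deposited was 4.30, its ceiling in the list, for all 3.

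Counted in the 10650 strongest peaks of each replicate, 3 of the 5 genes had a promoter peak in replicate 1, against 25% of protein-coding genes. In replicate 2 there were 4 of 5, against 23.2%, and in replicate 3 there were 4 of 5, against 25.1%. The genes were not the same ones. M1BP and pzg had one in all 3 replicates, Dref in replicates 2 and 3, row in replicates 1 and 2, and Trf2 in replicate 3 alone.

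IDR peaks above the median signal gave 2 of 5 members (15.8% of protein-coding genes), and the 1000 strongest gave 1 (4.42%), which was M1BP. Windows of 250 bp gave 2 (18.1%) and windows of 1000 bp gave 3 (26.7%). The whole pooled list gave 3 (30.4%), and the whole lists of replicates 1, 2 and 3 gave 3, 4 and 5 (33.6%, 31.7% and 34%). These whole lists include weak peaks. Their lowest −log10 q-value was 0.32 in the pooled list and 0.30, 0.36 and 0.37 in replicates 1, 2 and 3. The lowest in the IDR list was 3.37. When IDR peaks were kept that recurred in both of the other replicates, 2 members were left without replicate 1 (19.4%), 2 without replicate 2 (19.7%) and 3 without replicate 3 (20%).

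**Figure D1:**
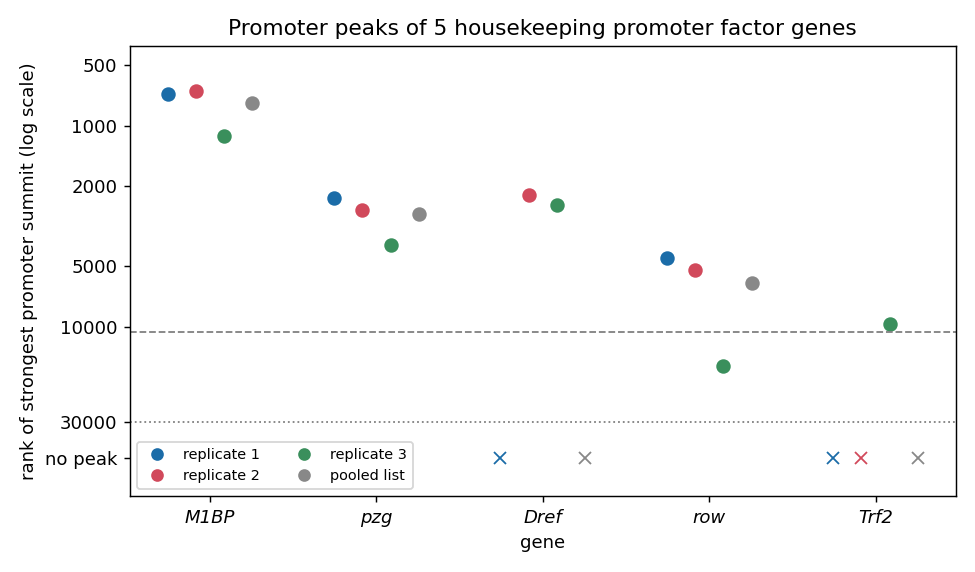
Rank of the strongest promoter summit of each gene (log scale, stronger upward) in the 3 replicate lists and the pooled list, with crosses where the list has no summit within 500 bp of a start site. The dashed line is rank 10650 and the dotted line rank 30000, the end of the lists. M1BP lies between ranks 671 and 1125 in every replicate, Dref has a peak in replicates 2 and 3 but not in replicate 1 or the pooled list, and row falls to rank 15684 in replicate 3.

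Dref (FBgn0015664, 2L, 9964147 to 9967229, reverse strand), the gene of the DRE-binding factor itself, had a promoter peak at rank 2206 in replicate 2 and at rank 2471 in replicate 3. The signal values were 534 and 333, and the summits lay 10 bp upstream and 30 bp downstream of the start site. In both replicates the Dref peak ranked ahead of the pzg peak (2615 and 3917). Replicate 1 had no summit in Dref or within 5 kb of it, and neither had the pooled list or the IDR list. The nearest summit of all 3 of these lists lay 10085 bp away, at position 9957144. Replicates 2 and 3 also shared a weaker summit near the start of CG5850, the gene that follows Dref (ranks 5549 and 5916), and in replicate 1 that summit was missing too.

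The start site of Dref lies 84 bp from that of RpL13, which encodes a protein of the large ribosomal subunit and is transcribed the other way. A peak here therefore cannot be given to one gene or the other. Replicate 3 had another summit (rank 10048) closer to the start of RpL13. Losses of this kind were counted among strong peaks where no summit lay within 1000 bp, a count that was not planned. Of 2637 summits shared by the 3000 strongest peaks of replicates 2 and 3 (within 200 bp), 11 (0.417%) had no summit within 1000 bp in either replicate 1 or the pooled list, 8 of them at promoters, and the Dref summit is one of the 11. With replicate 2 as the one left out the number was 8 of 2606, and with replicate 3 it was 12 of 2652. Counted by genes, with the 500 bp window, 3388 protein-coding genes had a promoter summit among the 10650 strongest of at least 2 replicates. Of these 3388 genes, 323 had none in the IDR list. As shares of all 13945 protein-coding genes, the 323 are 2.32% and the 3388 are 24.3%. The pooled list was also without one for 274 of the 323. Of these genes, 67 (0.48% of all protein-coding genes) had a promoter summit among the 3000 strongest of at least 2 replicates. What keeps such peaks out of 1 replicate and out of the pooled list was not tested. When a promoter peak in at least 2 replicates was required in place of one in the IDR list, a rule chosen after the data were examined, 4 of the 5 genes had one against 24.3% of protein-coding genes, and Dref was the gene added.

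Trf2 (FBgn0261793, X, 8409272 to 8433011, forward strand), at 23740 bp the longest of the 5 genes, had its IDR peaks inside the gene and none within 500 bp of its start sites. It has 2 annotated start sites, at 8409272 and 8421365. The 4 IDR summits lay between them, 6454 to 8661 bp downstream of the first, in an intron that runs from 8410690 to 8418350 in some transcripts and to 8423183 in others. The strongest, at 8417126 (rank 6013 of the IDR list), had ranks 5487, 6447 and 6931 in replicates 1, 2 and 3. It was the only one of the 4 found among the 10650 strongest peaks of every replicate. The summit at 8417326 had ranks 7539, 13474 and 24047, and the one at 8417933 had ranks 11078, 11000 and 11138. The summit at 8415726 was matched in replicates 2 (rank 12707) and 3 (rank 12235), while the nearest summit of replicate 1 lay over 100 bp away.

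Of these intron peaks, 3 lay close to the end of the IDR list, at ranks 10089, 10213 and 10582 of 10650. Just outside it, the pooled list had a further summit in the same intron at rank 10833, and one at rank 11716 that lay 761 bp downstream of the first start of Trf2. That last position is 65 bp from a start of lawc, a gene on the opposite strand that overlaps the first exons of Trf2, so a summit there cannot be given to one gene or the other. In the replicates, the summit nearest to the first start of Trf2 was 764 bp away in replicate 1 (rank 19667), 560 bp in replicate 2 (rank 12367) and 43 bp in replicate 3 (rank 9740). Replicate 3 had a stronger one 729 bp downstream (rank 6847), in the part shared with lawc. The summit of any list nearest to the second start was 1514 bp away, in replicate 3. With 5 kb on each side of the gene, the 4 IDR summits inside Trf2 come to 1.19 per 10 kb. The median protein-coding gene had 0.478, and 28.2% of genes had at least as many per 10 kb as Trf2. In this count the overlapping peaks at 8417126 (8417001 to 8417239) and 8417326 (8417199 to 8417457) stand as separate summits.

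pzg (FBgn0259785, 3L, 21286099 to 21290310, forward strand) had 1 IDR peak (21285639 to 21286157), with its summit 194 bp upstream of the start site. Its ranks were 2286, 2615 and 3917 in replicates 1, 2 and 3 (mean 2939 ± 862, SD, n = 3), and the signal values were 425, 460 and 220. The summits of the replicates lay 253, 148 and 240 bp upstream of the start site. The nearest start site is that of CG12974, which runs the other way from 137 bp upstream of pzg, and the IDR summit fell inside the 5' UTR of CG12974, 57 bp downstream of its start. The GC-rich gap printed above (60.3% G or C) lies between the IDR summit and pzg.

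M1BP (FBgn0037621, 3R, 8729790 to 8731698, reverse strand), which encodes the motif 1 binding protein, also had 1 IDR peak (8731606 to 8732191) and no other summit in the gene or within 5 kb in any of the 5 lists. The peak had ranks 691, 671 and 1125 in replicates 1, 2 and 3 (mean 829 ± 257, SD, n = 3), with signal values of 1057, 1267 and 616. Summits lay 141, 182 and 269 bp upstream of the start site, between M1BP and the divergent gene CG8202, whose start is 393 bp away. In replicate 3 the summit was closer to CG8202 (124 bp) than to M1BP. The DNA at the summit was poor in G and C: 12.9% of the 101 bases around the IDR summit, where the median IDR summit had 31.7% and 33 of the 10650 summits (0.31%) were as low. This was the lowest of the 9 member summits, followed by the Trf2 summit at 8417326 (14.9%, with 0.948% of IDR summits as low). Over the 300 bases printed above, the share at M1BP was 22.7%.

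row (FBgn0033998, 2R, 15206527 to 15213634, reverse strand) had a promoter peak in the IDR list (15213538 to 15214068) with its summit 338 bp upstream of the start site. The 3 replicates placed the summit 339, 323 and 350 bp upstream, a spread of 27 bp, but gave it unequal strength. The rank was 4578 in replicate 1, 5224 in replicate 2 and 15684 in replicate 3 (mean 8495 ± 6234, SD, n = 3). In replicate 3 the authors' −log10 q-value there was 1.77, below the ceiling it reached in replicates 1 and 2 (4.30). The summit lies between the start of row and the 3' end of CG8093, and the peak itself reaches past both, while no other gene had a start site within 500 bp of the summit.

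Within 5 kb upstream of row were 2 more IDR peaks, both with summits nearer to the start of another gene. One, 4120 bp upstream of row, was 137 bp upstream of the start of mRpL41, a gene of the mitochondrial ribosome (rank 88, and ranks 90, 78 and 83 in the replicates). A start of the non-coding RNA gene lncRNA:CR44463 also lay within 500 bp of that summit. The other lay 18 bp upstream of CG11808 (rank 8630, and ranks 8925, 13164 and 7185). The mRpL41 peak was the strongest in or near any of the 5 genes, and it repeated more closely than the row peak, with a mean rank of 83.7 ± 6.03 (SD, n = 3).

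**Figure D2:**
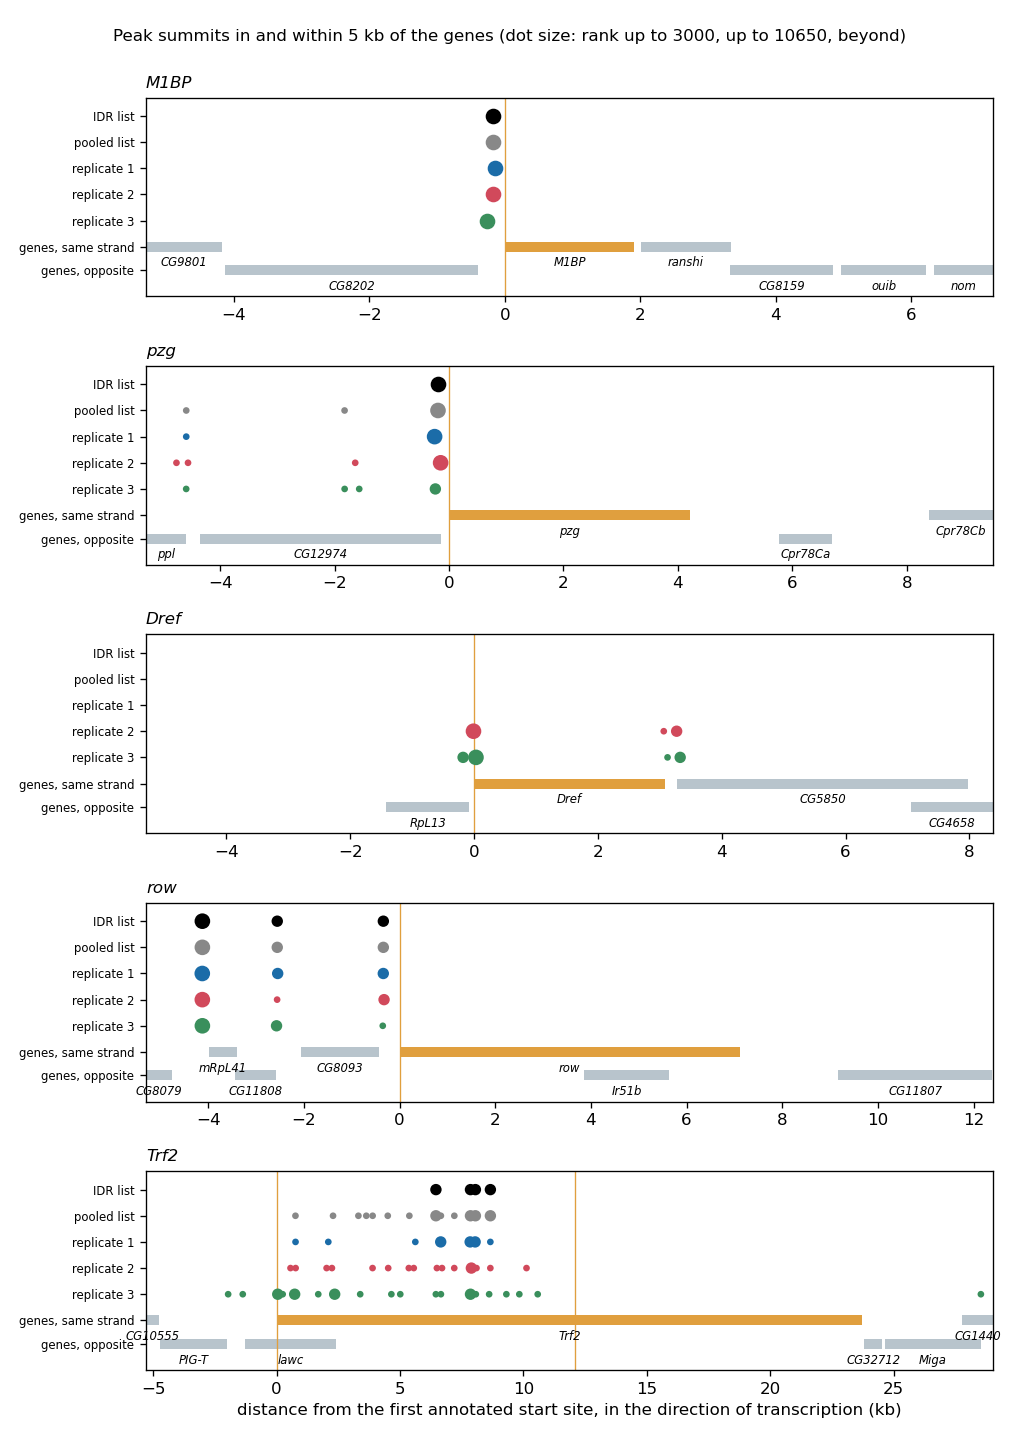
Summits of the 5 peak lists in and within 5 kb of each gene, drawn by their distance in kb from the first start site in the direction of transcription. Large dots are ranks up to 3000, middle-sized dots ranks up to 10650 and small dots weaker summits, and bars are protein-coding genes, with the described gene in orange and vertical lines at its start sites. M1BP and pzg have 1 strong summit just upstream of the start, the rows of replicate 1, the pooled list and the IDR list are empty at Dref, and the IDR summits of Trf2 lie in the intron between its start sites.

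Ordered by their replicate ranks, M1BP came first without overlap with any other member, since its weakest rank (1125) was ahead of the strongest rank of pzg (2286) and Dref (2206). The ranks of pzg and Dref overlapped, although Dref was ahead in each of the 2 replicates that have both. The ranks of row (4578 to 15684) were all behind those of pzg and Dref, and spanned the single rank of Trf2 (9740). Replicate 3 gave the weakest rank of the 3 for M1BP, pzg and row alike. In all, 9 IDR summits lay inside the 5 genes or within 5 kb: 4 in Trf2, 3 at and upstream of row, 1 each at pzg and M1BP and none at Dref. A summit in such a span was found for 4 of the 5 genes and for 52.6% of all protein-coding genes. Of the 9 summits, 4 were matched within 100 bp among the 10650 strongest peaks of all 3 replicates (44.4%, against 72.2% of all IDR peaks). They were those of M1BP, pzg, mRpL41 and the strongest of Trf2.

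Genes with replicate ranks most like those of a member were found by the distance between log2 ranks over the 3 replicates, among 2916 protein-coding genes whose promoter peak was matched in all 3. Nearest to M1BP were CG6550 and Mtap, which share a peak (ranks 741, 640 and 1180), and Poxm (ranks 667, 594 and 1097). Nearest to pzg were CG17597 and ScpX, again with a shared peak (ranks 2388, 2682 and 3840), and capu (ranks 2228, 2476 and 3797). For row they were CG3919 and stwl, with a shared peak (ranks 4320, 4297 and 14746), and Sumo (ranks 5726, 5747 and 17520).

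Dref, pzg and M1BP share an arrangement that the choice of genes did not use, a protein-coding start site on the opposite strand within 500 bp upstream. Among all protein-coding genes 27.4% have one. An IDR promoter peak was found for 31.7% of the 3815 genes with such a neighbour and for 19.6% of the 10130 genes without. A peak between divergent starts can count for both genes, and its part in these shares was not tested. Of the 3 members with a close divergent neighbour pzg and M1BP had an IDR peak, and of the other 2 members row had one.

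None of the 6 start sites of the 5 genes had the DRE word TATCGATA or the motif 1 core GGTCACAC in the 300 bases from 250 before the start to 50 after it, on either strand. Of all 19253 distinct start sites of protein-coding genes, 7.98% had the DRE word and 6.72% the motif 1 core, and a count of 0 in 6 beside such shares is no result about the members. Neither word lay within 50 bp of any of the 9 IDR summits, where 0.93% of all IDR summits had the DRE word and 0.892% the motif 1 core. The core CGATA, which is part of the DRE word, was at the start sites of Dref, pzg and row and the first start of Trf2 (4 of 6, against 45.7% of all start sites). Of the 9 IDR summits, the promoter summits of pzg and row had CGATA within 50 bp (2 of 9, against 11.9% of all IDR summits). In Dref the word beginning 17 bp upstream of the start differs from the DRE by A8T, and in row the word beginning 5 bp upstream differs by A8G, where the base of the DRE stands first and positions count from 1 at its 5' end. Words with at least 7 of the 8 letters of the DRE, a search added after the data were examined, were present at these 2 of the 6 start sites and at 25.1% of all. The same search for the motif 1 core found words with 7 of its 8 letters at the first start of Trf2 and at pzg, also 2 of 6, against 21.3% of all start sites. The TATA word TATAAA was at the start-site windows of M1BP, row and the first start of Trf2 (3 of 6, against 42.2%), and at the IDR summit of M1BP alone among the 9 (24.1% of all IDR summits). At M1BP its matches in the window began at positions -218 to -173 relative to the start, under the peak. Ohler 6 was at the start sites of pzg and row and the first of Trf2 (32.1% of all), and GAGAG, a word of the GAGA factor, only at the second start of Trf2 (33.1% of all), which had no peak. CAGCTG and Ohler 7 were at none of the 6, against 17.9% and 8.9% of all.

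**Figure D3:**
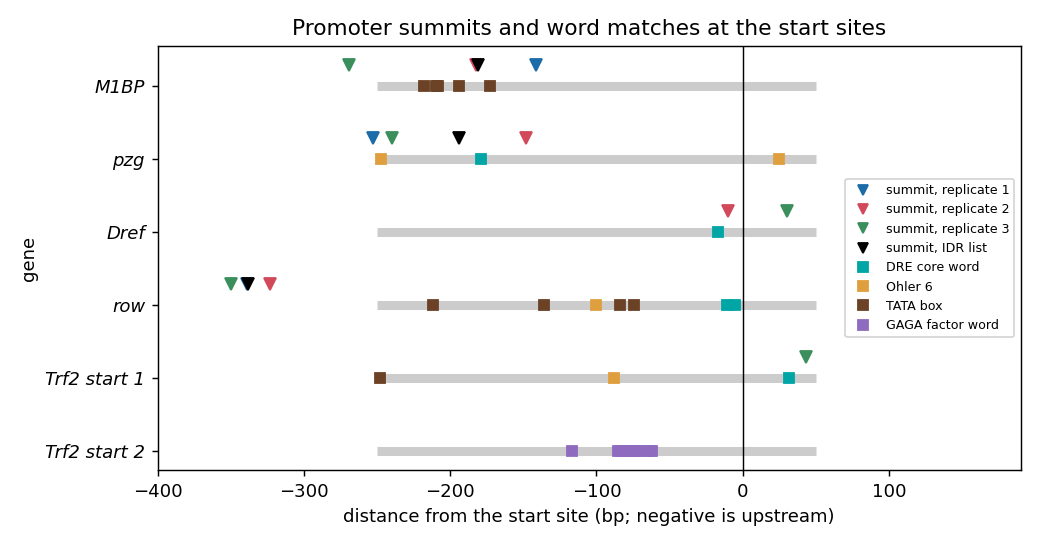
Word matches (squares) in the window from 250 bp before to 50 bp after each of the 6 start sites (grey bars), with the promoter summits of the 3 replicates and the IDR list (triangles) by their distance from the start in bp. The 3 replicate summits of M1BP spread over 128 bp around a run of TATA words, those of row lie 323 to 350 bp upstream of the start, outside the window, and those of Dref lie on either side of the start.

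Over all protein-coding start sites, an IDR summit lay within 500 bp of 27.9% of those with the DRE word and of 34.2% of those with the motif 1 core, compared with 20.3% of those with neither. Start sites of 1 gene and of divergent neighbours share peaks, so these shares were not tested.

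Genes of the members' known partners and targets were followed in 6 lists, and 33 of 34 symbols were found in the annotation (MCRS2 is another name of Rcd5, which the list holds already). Of the 33 genes, 7 had an IDR promoter peak (21.2%, against 22.9% of protein-coding genes), a share near the background. They fell in 3 lists. None of the 4 genes of the NURF remodeller and its partners, such as Iswi, its ATPase, and E(bx), its largest subunit, had one, nor had the 3 genes of the HP1c complex (woc, HP1c and Ubqn). Among the 5 genes of the TBP family, TFIIA and TFIIB none had an IDR peak, Tbp and Trf included, and TfIIA-S had a promoter peak in replicate 1 alone, at rank 2059.

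Of the 9 genes of the Chromator and NSL complex list, 3 had an IDR promoter peak, and in so short a list that count is read as no result beside the 22.9% of protein-coding genes. Chro encodes Chromator, the partner of Pzg on interband chromatin, and had the strongest of all 33 (3L, 22878646 to 22879173, rank 128). A start of Ssl1 also lay within 500 bp of this summit. The Chro peak had ranks 148, 107 and 137 in replicates 1, 2 and 3, ahead of every member in each replicate. The kinase gene JIL-1 had rank 4221 (ranks 4500, 4719 and 3901), and wds had rank 9978 (ranks 9943, 7675 and 17922) at a peak nearer to CG13760. MBD-R2 and nsl1 had none in the IDR list, although MBD-R2 had a promoter peak at rank 9394 in replicate 2 and at rank 8383 in replicate 3, and nsl1 had one at rank 8482 in replicate 3.

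Of the 5 genes of motif 1 partners and insulator proteins, 2 had an IDR peak, again beside 22.9% of protein-coding genes. Cp190, which encodes an insulator cofactor, had ranks 349, 363 and 330 (3R, 15275114 to 15275634, rank 335 of the IDR list). BEAF-32, whose product binds CGATA words, had ranks 2459, 2704 and 2621 (rank 2511). Starts of other genes also lay within 500 bp of these summits, CG4338 at Cp190 and asRNA:CR42254 at BEAF-32. gfzf, which encodes a cofactor of M1BP, and Ibf1 had none in the IDR list or in any replicate. Among 7 genes long used as examples of DRE control, CycA and E2f1 had an IDR peak (28.6%, near the same background), with ranks 3679, 5086 and 4653 for CycA and 4679, 3519 and 3991 for E2f1. PCNA had no promoter peak in any replicate, and its nearest IDR summit lay 5114 bp away. PolA1, the gene of the large subunit of DNA polymerase alpha, had a promoter peak in replicate 1 alone (rank 4250). PolA2 had one in replicates 1 (rank 7322) and 3 (rank 8066) and none in the IDR list.

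**Figure D4:**
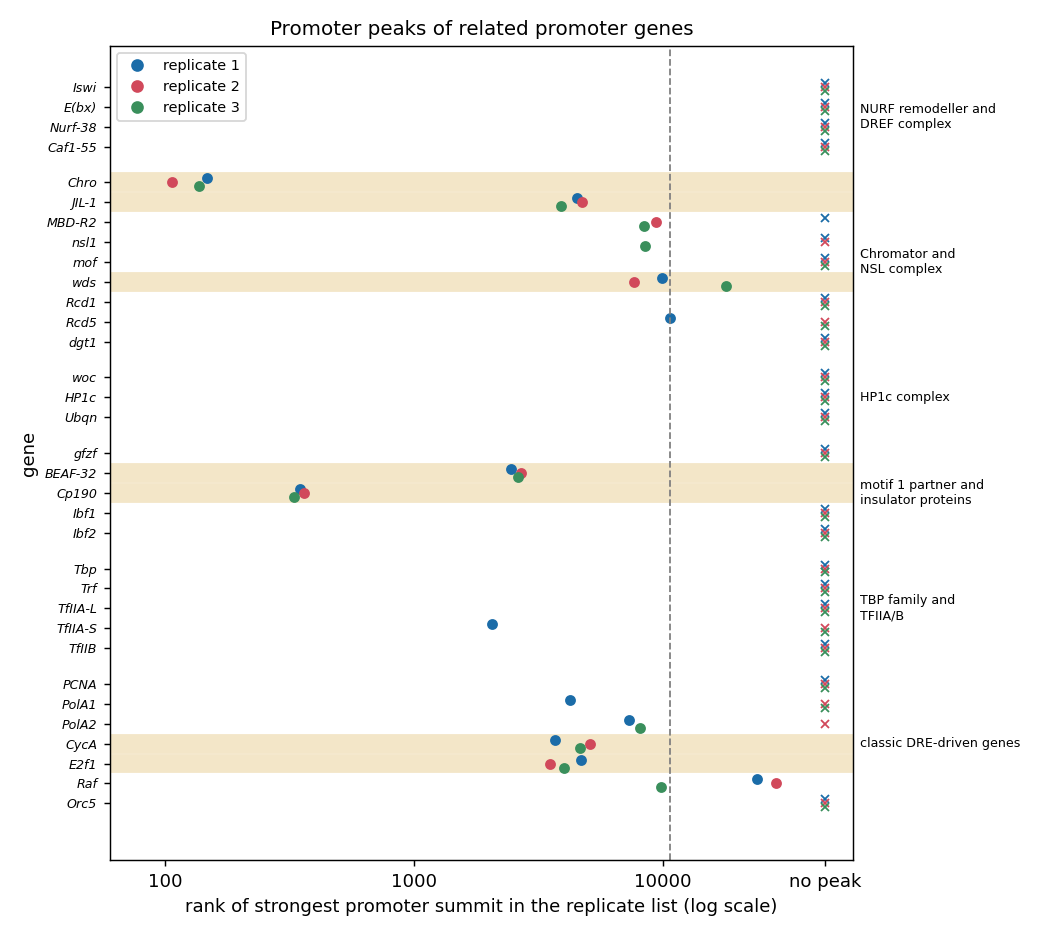
Rank of the strongest promoter summit (log scale, stronger to the left) of 33 related genes in the 3 replicate lists, with crosses where a replicate has none, shading where the IDR list has a promoter peak and a dashed line at rank 10650. Chro and Cp190 stand at ranks 107 to 363 in every replicate, and the NURF and HP1c lists (4 and 3 genes) have no promoter peak in any replicate. In lists so short this is no result beside the 31.7% to 34% of protein-coding genes with one in the whole replicate lists.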

How the data were processed

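ChIP-seq peak lists of 3 replicates were analysed. Per the text files deposited beside the lists, each replicate list and the pooled list were called against the same control alignment in dm6 coordinates, and the IDR list was derived from them. Neither aligner nor caller is given in the sources used here, and the depth is unknown. The signal value and the −log10 q-value of each peak are the authors' deposited values. Summits (peak start plus deposited offset) were counted from 1. Genes came from Ensembl release 115, in the same coordinates, and sequence from the NCBI genome of that assembly. Promoter windows were 500 bp, flanks 5 kb and matches 100 bp, with windows of 250 and 1000 bp, other lists and leaving out replicates as alternatives. To leave out a replicate, IDR peaks matched among the 10650 strongest of both others were kept. Assignment was tested on planted summits. Python 3.11.15, numpy 2.4.6, pandas 2.3.3 and matplotlib 3.10.9 were used.

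The members, lists and rules were chosen with earlier results of these data known. Named genes were the 5 members, genes sharing their peaks, in each related list up to 3 with the strongest promoter peak and up to 2 without one, and the 3 genes with the most similar replicate ranks. TfIIA-S, PolA2, Ubqn, CG5850, lawc, Ssl1, CG4338, asRNA:CR42254 and lncRNA:CR44463 were named after their values were seen. Comparisons are descriptions and no test was run. Nothing says more of the replicates than that they are biological.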

Additional observations from a re-analysis of the deposited data

Results flagged for a closer look

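Signals outside the IDR list were present at 2 members. The promoter of Dref had a summit at rank 2206 in replicate 2 and at rank 2471 in replicate 3, in neither the IDR list nor the pooled list, and replicate 1 had none. The first start of Trf2 had a promoter summit at rank 9740 in replicate 3 only, and the pooled list had none within 500 bp.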

How the results depend on the processing

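Of 56 alternatives to 11 results, 46 kept the value within 1.5 times the reported count or within 1 SD of the reported rank, and 10 moved it. This tally is lenient, since a fall from 3 members to 2 counts as kept. With 3 replicates, the mean rank of any 2 always lies within 1 SD of the mean of all 3. The settings that left out a replicate could therefore only be counted as keeping a rank. In the 1000 strongest IDR peaks 1 of 5 members had a promoter peak (against 4.42% of protein-coding genes) and 2 of 33 related genes had one. In IDR peaks above the median signal 3 summits remained in or near the members in place of 9, and with flanks of 10 kb there were 14. Leaving out 1 replicate at a time gave 4 to 5 summits, a setting that counts fewer IDR peaks. There were 4 without replicate 1, where 77.9% of all IDR peaks were kept. There were 5 without replicate 2 (77.1% kept) and 5 without replicate 3 (79.4% kept). The same setting gave 2 to 3 members with a promoter peak (2 without replicate 1 or 2, and 3 without replicate 3). Without replicate 1 or 2, row was the one lost. Related genes with a promoter peak numbered 6 to 7 of 33. The shares of protein-coding genes without replicates 1, 2 and 3 were 19.4%, 19.7% and 20%. With 250 bp windows, too, row was lost and 2 members were left. Of the 9 member summits, 2 were matched in all 3 replicates with a 50 bp limit, against 60.7% of all IDR peaks. In all 30000 peaks 8 were matched, against 91.9%. With the 100 bp limit, 2 of the matched summits were among the 3 promoter peaks. The mean rank without 1 replicate ran from 8.17% to 10.9% of the list for pzg, from 2.27% to 3.03% for M1BP and from 16.3% to 34.9% for row. With a 50 bp limit the M1BP and pzg peaks were not matched in every replicate, so no mean rank was computed. The counts of 0 for the DRE word and the motif 1 core held in every window tried. Depth, which is unknown, limits how far an absent peak can be read. No paired analysis was possible because the samples form 1 group.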
